A study of Homo sapiens with 12 samples.

Results

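The nucleotide synthesis genes of 22Rv1 cells were followed here, 33 genes of 18668 listed in the deposited table. They were taken by symbol as the enzymes of purine, pyrimidine and deoxynucleotide (dNTP) synthesis and salvage, and 33 of 33 were listed and passed the filter on low counts. By role they comprised 11 genes of de novo purine synthesis, 6 of pyrimidine synthesis, 7 that make or balance dNTPs, 6 salvage enzymes and 3 kinases that phosphorylate nucleoside mono- or diphosphates.

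Cells build purines stepwise on phosphoribosyl pyrophosphate, and pyrimidines as a free ring that is joined to the same sugar phosphate. Ribonucleotide reductase then converts ribonucleotides to the deoxy forms used for DNA, and thymidylate synthase makes the thymine nucleotide with a folate cofactor. Salvage enzymes recover bases and nucleosides instead of building them. Several of the dNTP genes are known to be expressed mainly in cells that replicate DNA.

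22Rv1 is an established line of castration-resistant human prostate cancer, labelled wild type in all samples. Cells were exposed for 24 h to an androgen receptor-targeting degrader (the group named 22Rv1_2024), to an autophagy-activating ligand (22Rv1_1021), to enzalutamide, an androgen receptor antagonist in clinical use, or to vehicle, with 3 libraries described as biologically independent in each of the 4 groups. Doses were not given, and 1 cell line in culture is the only model. Polyadenylated RNA was sequenced to between 55.5 and 77.2 M counted reads a library.

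The 11 luminal prostate markers were all listed, among them KRT8 at 430 to 852 CPM (read counts scaled to equal library size) and HOXB13 at 202 to 276 CPM over the 12 libraries. Of 16 basal, stromal, leukocyte and endothelial markers, 6 were listed, with VIM the highest at 17.5 to 24.9 CPM. The luminal markers KLK3 (10.5 to 21.8 CPM), whose range overlapped that of VIM, KLK2 (31.8 to 73.9) and TMPRSS2 (42.2 to 50.2) were far lower than KRT8. KRT5, TP63, PTPRC and PECAM1 were not among the genes listed, and the table lists only genes with at least 1 read in each library. The luminal markers summed to 2477 to 2543 CPM with the degrader, 3113 to 3211 with the ligand, 2771 to 2891 with enzalutamide and 3182 to 3352 with vehicle.

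Promoter windows are shown for the 3 genes with the smallest p for degrader against vehicle, to show the start sites of the best separated genes, and for the divergent promoter of PPAT and PAICS, the enzymes of the first and of later steps of purine synthesis. All 4 sequences are RefSeq windows on GRCh38.p14, from 250 bases before to 50 after the annotated start, written 5′ to 3′ on the gene's strand. Capitals mark the letters CCAAT (the NF-Y box), TTTCCCGC (an E2F site) or CACGTG (an E-box), on either strand. The windows are those of TYMS (chr18:657403-657702, plus strand), RRM1 (chr11:4094435-4094734, plus strand), RRM2 (chr2:10122489-10122788, plus strand) and PAICS (chr4:56435502-56435801, plus strand).
TYMS: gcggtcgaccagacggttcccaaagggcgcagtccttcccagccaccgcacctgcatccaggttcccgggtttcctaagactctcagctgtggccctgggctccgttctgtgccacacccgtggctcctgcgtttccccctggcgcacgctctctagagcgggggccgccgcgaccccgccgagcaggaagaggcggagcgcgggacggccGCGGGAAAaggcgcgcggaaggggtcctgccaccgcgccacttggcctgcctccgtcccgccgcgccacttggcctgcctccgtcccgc
RRM1: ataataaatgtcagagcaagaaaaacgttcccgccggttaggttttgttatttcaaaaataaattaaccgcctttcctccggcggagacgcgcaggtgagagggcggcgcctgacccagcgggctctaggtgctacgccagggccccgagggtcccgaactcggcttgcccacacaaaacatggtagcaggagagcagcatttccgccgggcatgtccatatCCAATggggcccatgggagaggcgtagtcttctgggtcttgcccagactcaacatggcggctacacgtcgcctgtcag
RRM2: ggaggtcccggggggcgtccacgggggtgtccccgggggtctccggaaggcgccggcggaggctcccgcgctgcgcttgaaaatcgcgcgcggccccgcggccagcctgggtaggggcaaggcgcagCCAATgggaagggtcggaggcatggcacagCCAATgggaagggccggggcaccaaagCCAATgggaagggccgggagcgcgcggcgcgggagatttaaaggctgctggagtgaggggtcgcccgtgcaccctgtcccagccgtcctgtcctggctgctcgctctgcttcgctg
PAICS: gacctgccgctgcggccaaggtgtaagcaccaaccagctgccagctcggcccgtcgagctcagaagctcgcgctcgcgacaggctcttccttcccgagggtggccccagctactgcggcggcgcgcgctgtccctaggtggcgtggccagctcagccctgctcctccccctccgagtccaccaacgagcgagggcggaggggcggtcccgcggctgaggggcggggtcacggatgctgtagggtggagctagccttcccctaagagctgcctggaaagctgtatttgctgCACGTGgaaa

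The TYMS window held 1 TTTCCCGC on the minus strand, beginning 39 bases before the start. RRM1 had 1 CCAAT beginning 28 bases before its start. The RRM2 window shown had 3, at 123, 93 and 66 bases before its start, each within the repeated run CCAATgggaaggg. Another RefSeq window of RRM2, not shown, held 1 CCAAT, 249 bases before its own start. Further PAICS windows, at chr4:56410257-56410556 and chr4:56436010-56436309, held no match. The CACGTG of PAICS lay 40 bases after its start and is also the CACGTG of the PPAT window, which begins 182 bases before the PPAT start, because the windows of these oppositely transcribed genes share 236 bases.

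RefSeq windows were found for 30 of the 33 genes, and several genes have more than 1. TTTCCCGC or TTTGGCGC, both searched on both strands, occurred in 5 of 30 genes (16.7%), against 4.34% of the 12500 genes in the deposited table that have a window. The 5 were TYMS, DUT, PRPS2, GART and DCK. CCAAT was found in 10 of 30 genes (33.3%), against 42.9%, and CACGTG in 6 of 30 (20%), against 12.3%. Among the 33 replication genes used below, 14 of 30 with a window (46.7%) held 1 of the E2F letters, and 13 of 15 mitotic genes (86.7%) held CCAAT. TGACGTCA (the CRE) was found in UMPS and GUK1 (6.67%, against 3.5%), and neither TGATGCAA (0.752% of all these genes) nor the NRF1 motif (2.46%) occurred in any of the 30. These are matches of letters, and binding was not measured.

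Levels between genes were compared as FPKM, the authors' read density per transcript length and sequencing depth. In vehicle-treated cells NME2, a nucleoside diphosphate kinase, was the highest at 581 ± 47.6 FPKM, followed by IMPDH2, the rate-limiting enzyme of guanine nucleotide synthesis, at 204 ± 7.2, and APRT, which salvages adenine, at 176 ± 11.5 (mean ± SD, n = 3). DHODH, the mitochondrial step of pyrimidine synthesis, was the lowest at 5.02 ± 0.311 FPKM, next to CTPS2 at 6.04 ± 0.258 and TK2 at 7.36 ± 0.266. The subunits of ribonucleotide reductase, RRM2 at 99.3 ± 4.79 and RRM1 at 95.8 ± 1.57 FPKM, did not differ beyond their spread, and neither did TYMS (86.7 ± 3.75) and TK1 (86.4 ± 1.72) nor PRPS2 (39.6 ± 2.93) and PRPS1 (39 ± 1.15). Within the de novo purine route PAICS stood highest after IMPDH2 at 121 ± 6.86 FPKM, and PFAS lowest at 14.1 ± 0.296.

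**Figure D1:**
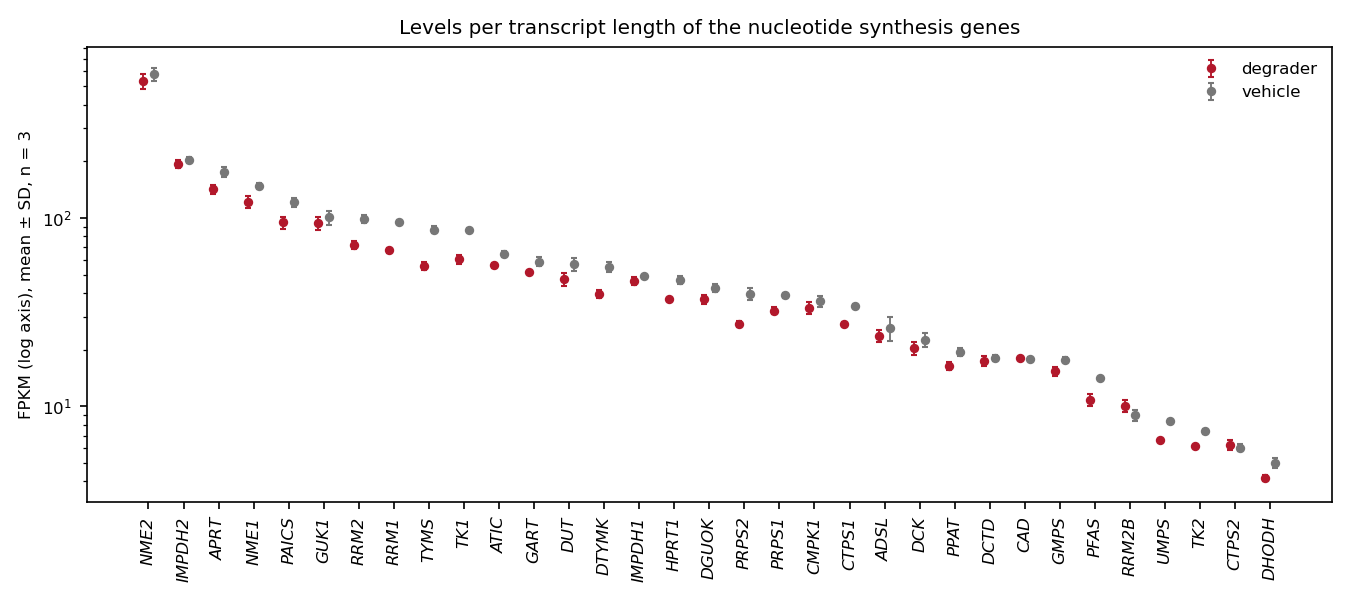
FPKM (log axis) of the 33 nucleotide synthesis genes with the degrader (red) and vehicle (grey), as mean ± SD over 3 libraries, ordered by the vehicle mean. NME2 is highest (533 FPKM with the degrader and 581 with vehicle) and DHODH lowest (4.16 and 5.02).

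Degrader against vehicle asked how the degrader altered these transcripts. Of the 33 nucleotide synthesis genes, 23 fell and 0 rose in degrader-treated cells by edgeR's quasi-likelihood test at a Benjamini-Hochberg adjusted p under 0.05 over all 17702 genes tested, where 16.4% of all genes were lower and 32.7% changed in either direction. Without adjustment 25 had p under 0.05, and DESeq2 and limma-voom also called 23 lower and 0 higher. The falls were modest, with a median log2 fold change of -0.26 over the 33 genes, against 0.01 over all genes tested, and a range from -0.64 (TYMS) to 0.18 (RRM2B). In 24 of 33 genes every degrader library was below every vehicle library, as it was for 22.1% of all genes tested. In bulk RNA, fewer cells that transcribe a gene and less of its RNA per cell cannot be told apart.

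All but 2 of the 23 calls held when any 1 of the 6 libraries was left out. The call of ADSL was lost (adjusted p between 0.0572 and 0.137) on omission of any vehicle library, of degrader replicate 2 or of degrader replicate 3. That of DGUOK was lost on omission of vehicle replicate 1 (0.0874), degrader replicate 2 (0.0637) or degrader replicate 3 (0.0668). The authors' deposited table gave an adjusted p under 0.05 against vehicle to 23 of the 33 genes, all lower, and these are the 23 called here.

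**Figure D2:**
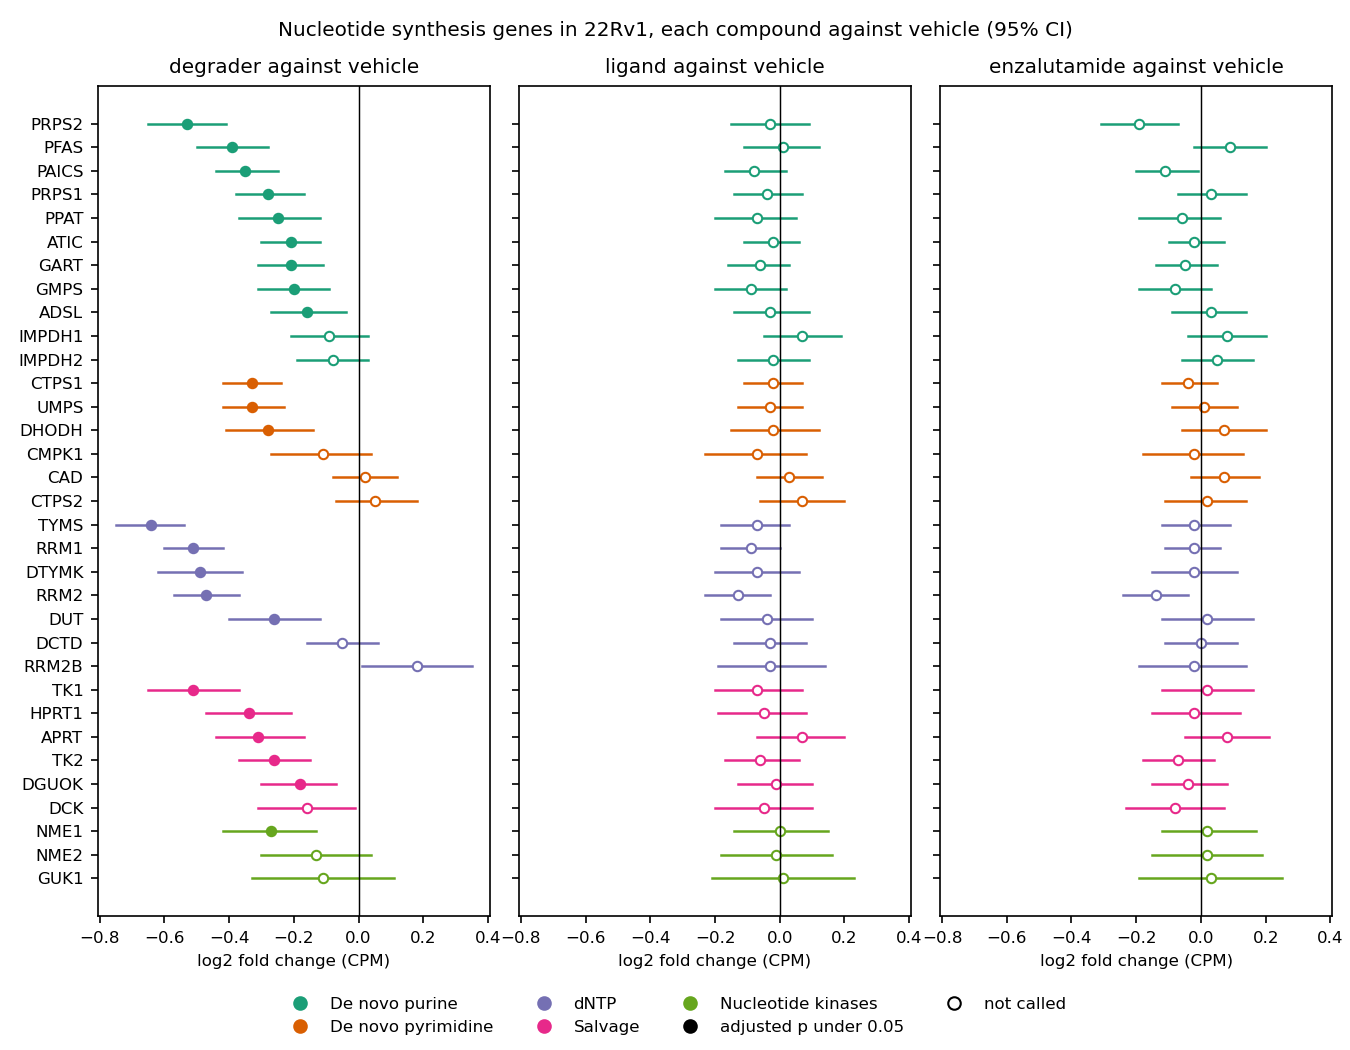
Log2 fold change (x axis) with its 95% confidence interval for each of the 33 genes, by role, for the degrader, the ligand and enzalutamide against vehicle (3 libraries a group). Filled points passed an adjusted p of 0.05: 23 with the degrader, all lower, and 0 with the ligand or enzalutamide.

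Of the 7 dNTP genes 5 fell (71.4%, median -0.47), where 16.4% of all genes were lower. TYMS, which makes thymidylate from deoxyuridylate, had 94, 103 and 98.7 CPM in degrader-treated cells, against 155, 159 and 149 CPM with vehicle, a fall to 0.64 of the vehicle level (log2 fold change -0.64, SE 0.05, adjusted p = 4.89e-08). The degrader libraries were all below the vehicle libraries, and the ligand (153, 145 and 141 CPM) and enzalutamide (153, 157 and 148 CPM) libraries lay at or near the vehicle range. TYMS is overlapped by ENOSF1, read from the opposite strand, which had 98.1, 99.2 and 101 CPM with the degrader, against 95, 98.9 and 99.8 CPM with vehicle (0.02, adjusted p = 0.715). Reads of ENOSF1 came to 59.1 to 104% of those of TYMS. Whether counting told strands apart is not given in the sources used here, which limits the values of both genes.

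RRM1, the large catalytic subunit of ribonucleotide reductase, had 225, 239 and 236 CPM with the degrader, against 331, 333 and 333 CPM with vehicle (-0.51, SE 0.04, adjusted p = 9.92e-08). RRM2, the small subunit made in S phase, had 240, 265 and 262 CPM with the degrader, against 342, 367 and 354 CPM with vehicle (-0.47, SE 0.05, 1.71e-06). Neither subunit had a degrader library within the vehicle range. RRM2B, the alternative small subunit known as a p53 target that serves resting and damaged cells, did not follow them. It had 49.1, 56.1 and 55.7 CPM with the degrader, against 44.2, 48 and 49.9 CPM with vehicle, and its groups overlapped (0.18, 95% confidence interval 0.01 to 0.35, adjusted p = 0.0907). Without degrader replicate 1 the call passed (0.24, 0.0378).

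DTYMK, the kinase that takes thymidylate to its diphosphate, had 44.2, 47 and 43.7 CPM with the degrader, against 65.1, 65.3 and 59.3 CPM with vehicle (-0.49, SE 0.06, adjusted p = 1.58e-05). DUT, which removes dUTP and so keeps uracil out of DNA, fell by 0.26 (SE 0.06, 0.00529). DCTD, which deaminates dCMP to feed thymidylate synthesis, had 42.6, 41.8 and 38.9 CPM with the degrader, against 41.2, 44.2 and 42.4 CPM with vehicle (-0.05, interval -0.16 to 0.06, adjusted p = 0.488). Summed over the 7 genes, dNTP transcripts came to 801 to 858 CPM with the degrader, 1039 to 1059 with the ligand, 1054 to 1110 with enzalutamide and 1097 to 1146 with vehicle, a mean 25.7% lower with the degrader than with vehicle.

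Salvage enzymes fell in 5 of 6 cases (83.3%, median -0.28), where 16.4% of all genes were lower. TK1, the cytosolic thymidine kinase of dividing cells, had 99.4, 99.4 and 91.2 CPM with the degrader, against 141, 135 and 136 CPM with vehicle (-0.51, SE 0.07, adjusted p = 1.84e-05). TK2, the mitochondrial thymidine kinase, had 33.9, 34.4 and 33.2 CPM with the degrader, against 41.3, 39.4 and 40.7 CPM with vehicle (-0.26, SE 0.05, 0.00128). Degrader and vehicle libraries did not overlap for either kinase.

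HPRT1, which returns hypoxanthine and guanine to the nucleotide pool, had 55.9, 56.9 and 58.6 CPM with the degrader, against 69.8, 70.5 and 76.7 CPM with vehicle (-0.34, SE 0.06, adjusted p = 0.000586). APRT, its adenine counterpart, had 133, 130 and 121 CPM with the degrader, against 170, 156 and 149 CPM with vehicle (-0.31, SE 0.06, 0.00128). The groups were again apart for both genes. The mitochondrial deoxyguanosine kinase gene DGUOK fell by 0.18 (0.0168). DCK, the kinase that activates deoxycytidine and many nucleoside drugs, was at -0.16 (interval -0.31 to -0.01, 0.103), with an overlap between groups, and its call passed without vehicle replicate 1 (-0.22, 0.0339).

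**Figure D3:**
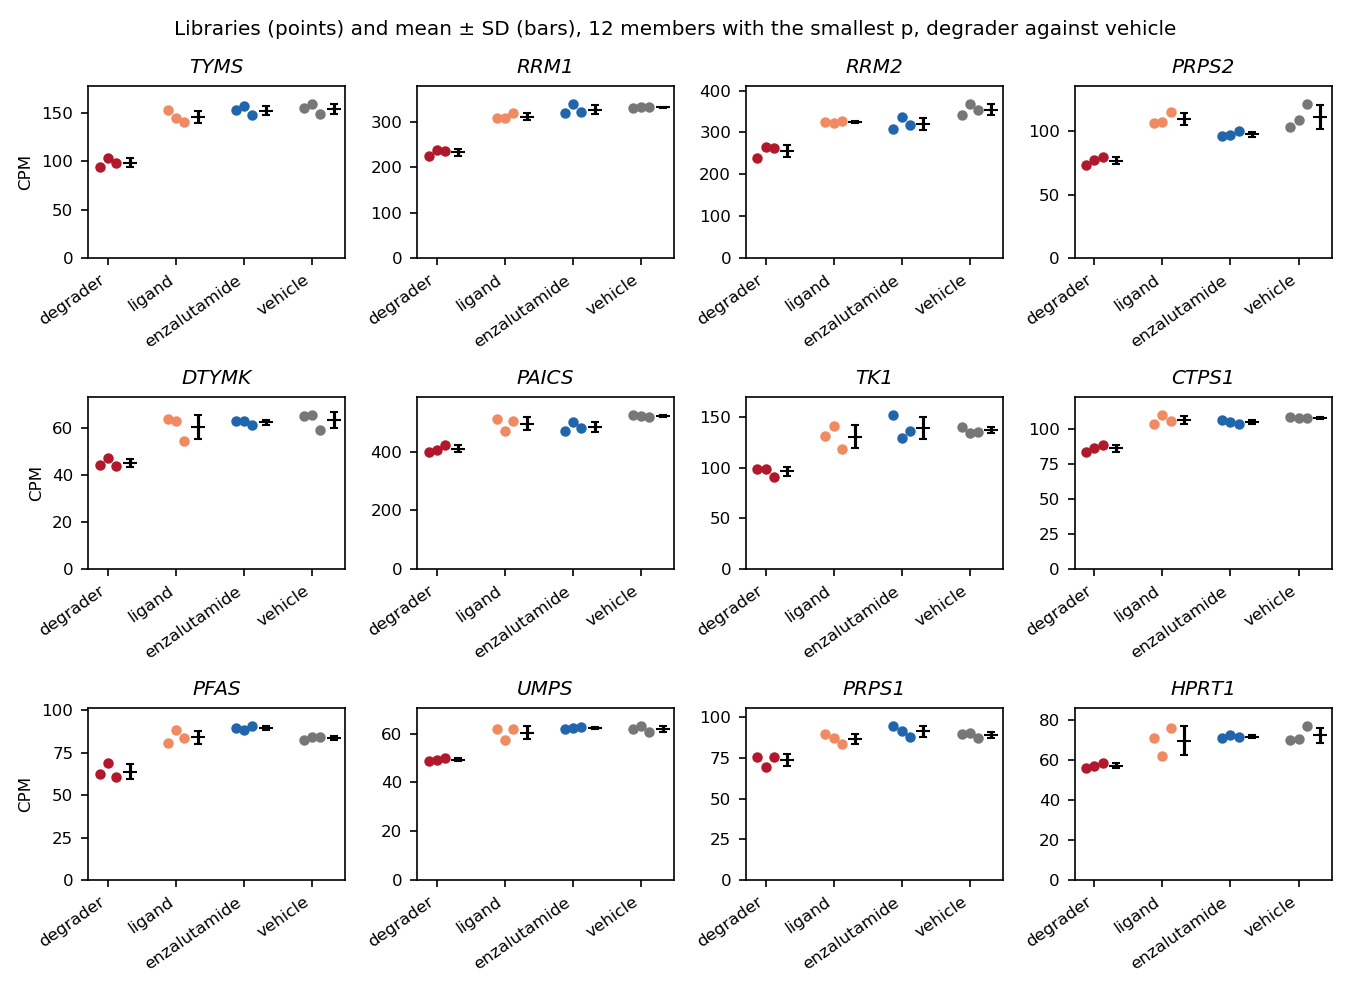
CPM in each library (points) with mean ± SD (black bars, n = 3) for the 12 genes with the smallest p for degrader against vehicle, with every axis starting at 0. In each panel the 3 degrader libraries lie below the 3 vehicle libraries, for example 94 to 103 CPM against 149 to 159 CPM for TYMS.

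De novo purine genes fell in 9 of 11 cases (81.8%, where 16.4% of all genes were lower), with a smaller median (-0.21). PRPS2, one of the synthetases that make phosphoribosyl pyrophosphate, had 73.5, 77.3 and 79.5 CPM with the degrader, against 103, 109 and 121 CPM with vehicle (-0.53, SE 0.06, adjusted p = 2.24e-06). Its paralog PRPS1 had 75.8, 69.5 and 75.7 CPM with the degrader, against 89.9, 90.4 and 87.3 CPM with vehicle (-0.28, SE 0.05, 0.000425). Every degrader library was below every vehicle library for both.

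PFAS, which carries out the fourth step, had 62.4, 68.7 and 60.4 CPM with the degrader, against 82.6, 84.5 and 84.5 CPM with vehicle (-0.39, SE 0.05, adjusted p = 2.64e-05). PAICS, a bifunctional enzyme of the middle of the route, had 400, 406 and 423 CPM with the degrader, against 523, 522 and 519 CPM with vehicle (-0.35, SE 0.04, 1.74e-05). PPAT, the first committed step, shares the promoter region shown above with PAICS and fell by 0.25 (SE 0.06, 0.00403). PFAS overlaps CTC1, which rose by 0.29 (0.00183), and ATIC overlaps FN1, which fell by 0.54 (3.4e-06). PPAT overlaps PAICS, whose reads came to 599 to 700% of those of PPAT. ADSL overlaps SGSM3 (77.1 to 94.3% of the ADSL reads), which did not pass (0.978). Whether counting told strands apart is not given in the sources used here, which limits the values of these genes. The trifunctional enzyme GART and the last enzyme of the route to inosine monophosphate, ATIC, each fell by 0.21 (0.002 and 0.000787).

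Around the branch from inosine to guanine nucleotides, GMPS, which completes guanosine monophosphate, fell by 0.20 (SE 0.05, adjusted p = 0.00781), and ADSL, which acts in the ring and in the adenine branch, by 0.16 (0.0356). The dehydrogenases IMPDH1 at -0.09 (interval -0.21 to 0.03, 0.263) and IMPDH2 at -0.08 (-0.19 to 0.03, 0.255) did not pass. IMPDH2 had 370, 352 and 337 CPM with the degrader, against 389, 367 and 364 CPM with vehicle, and its groups overlapped, whereas all IMPDH1 degrader libraries (119 to 127 CPM) were below the vehicle libraries (131 to 134 CPM). The 11 genes summed to 1677 to 1684 CPM with the degrader, 1911 to 1941 with the ligand, 1913 to 1967 with enzalutamide and 1974 to 1988 with vehicle, a mean 15% lower with the degrader than with vehicle.

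Of the 6 pyrimidine genes 3 fell (50%, median -0.19), where 16.4% of all genes were lower. CTPS1, which makes CTP from UTP, had 83.7, 86.6 and 88.7 CPM with the degrader, against 109, 108 and 108 CPM with vehicle (-0.33, SE 0.04, adjusted p = 1.97e-05). UMPS, which forms the first pyrimidine nucleotide, had 48.8, 49.1 and 50 CPM with the degrader, against 61.8, 63 and 60.7 CPM with vehicle (-0.33, SE 0.05, 4.77e-05). DHODH, the mitochondrial step before UMPS, fell by 0.28 (SE 0.06, 0.00291).

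CAD, the trifunctional enzyme that begins the route, had 143, 142 and 143 CPM with the degrader, against 138, 141 and 144 CPM with vehicle (0.02, interval -0.08 to 0.12, adjusted p = 0.82). The degrader libraries of CAD lay within the vehicle range, and the lower end of its interval was above the upper ends of those of UMPS (-0.23) and CTPS1 (-0.24). CTPS2, the paralog of CTPS1, had 25.5, 27.2 and 29.2 CPM with the degrader, against 26.4, 27.1 and 25.6 CPM with vehicle, and its groups overlapped (0.05, interval -0.07 to 0.18, adjusted p = 0.557). The UMP and CMP kinase gene CMPK1 (-0.11, -0.27 to 0.04, 0.257) did not pass either.

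Of the 3 kinases 1 fell (33.3%), where 16.4% of all genes were lower. With 3 genes this share cannot be told from that of all genes. NME1, a nucleoside diphosphate kinase, had 120, 105 and 109 CPM with the degrader, against 140, 134 and 130 CPM with vehicle (-0.27, SE 0.07, adjusted p = 0.00609). NME2, its neighbour on the chromosome, had 443, 406 and 372 CPM with the degrader, against 485, 433 and 415 CPM with vehicle (-0.13, interval -0.30 to 0.04, 0.251). A read-through locus that joins them, NME1-NME2, fell by 0.43 (0.00107) and held reads equal to 15.3 to 20.6% of those of NME1, so both values are uncertain where reads were shared. GUK1, the guanylate kinase gene, had 119, 109 and 99.5 CPM with the degrader, against 129, 115 and 109 CPM with vehicle (-0.11, interval -0.33 to 0.11, 0.457), and its groups overlapped.

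The log2 ratio of read counts within a library, which library scaling cannot alter, was computed for 6 pairs of paralogs. RRM2 over RRM2B was 2.29, 2.24 and 2.23 in degrader libraries, against 2.95, 2.94 and 2.83 with vehicle, a difference of -0.65. CTPS1 over CTPS2 was 1.71, 1.67 and 1.6 in degrader libraries, against 2.04, 2 and 2.07 with vehicle (-0.38), and TK1 over TK2 was 1.55, 1.53 and 1.46, against 1.77, 1.78 and 1.74 with vehicle (-0.25). In all 3 pairs the degrader libraries were below the vehicle libraries.

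PRPS1 over PRPS2 moved the other way, at 0.04, -0.15 and -0.07 in degrader libraries, against -0.2, -0.27 and -0.47 with vehicle (0.25). Enzalutamide libraries had -0.03, -0.07 and -0.18 for this pair, close to the degrader, whereas ligand libraries had -0.24, -0.29 and -0.46. NME1 over NME2 differed by -0.15, with overlap, and IMPDH1 over IMPDH2 by -0.01. For these 4 pairs without overlap the two-sided exact permutation p was 0.1, the smallest that 3 against 3 libraries allow, and 0.15 after Benjamini-Hochberg adjustment over the 6 pairs; it was 0.2 for NME1 over NME2 and 0.8 for IMPDH1 over IMPDH2. No pair shared a run of 50 bases between its GENCODE coding transcripts.

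**Figure D4:**
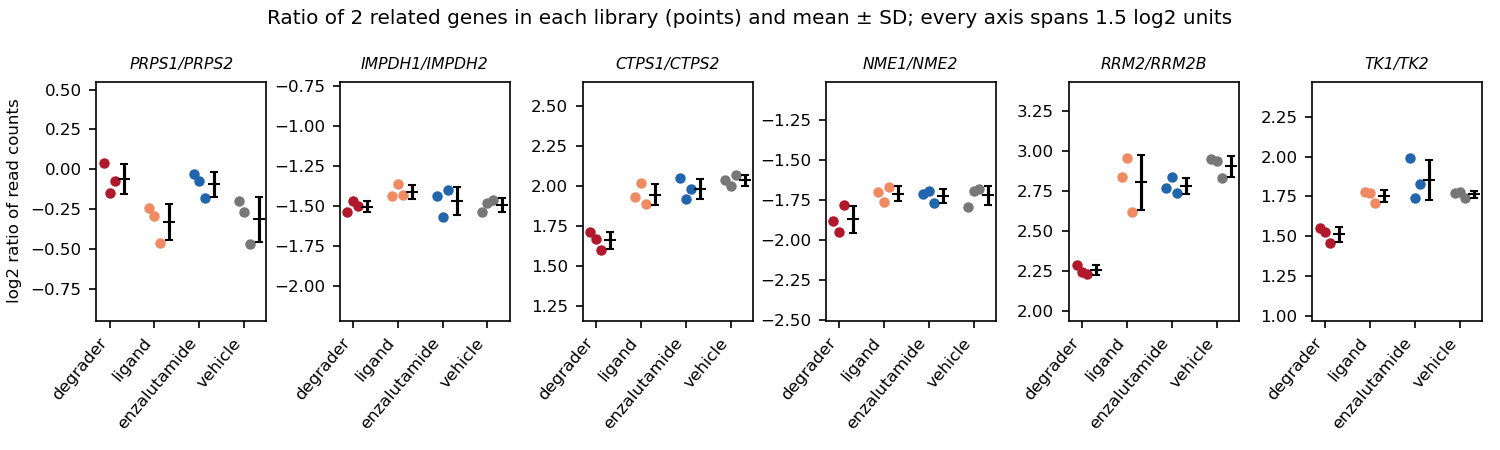
Log2 ratio of the read counts of 2 related genes in each library (points) with mean ± SD (n = 3), for the degrader, ligand, enzalutamide and vehicle; every axis spans the same width. RRM2/RRM2B shows the widest gap, 2.23 to 2.29 with the degrader and 2.83 to 2.95 with vehicle, and IMPDH1/IMPDH2 shows none.

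None of the 33 genes passed the test for the ligand or for enzalutamide. With the ligand against vehicle, 0 of 33 passed edgeR, where 0.237% of all genes did; 2 had an unadjusted p under 0.05, RRM2 (-0.13, 95% confidence interval -0.23 to -0.03, adjusted p = 0.562) and RRM1 (-0.09, -0.18 to 0, 0.66), and DESeq2 and limma-voom called 0. The 95% confidence intervals of all 33 lay between -0.23 and 0.23. RRM2, RRM1 and PAICS had every ligand library below every vehicle library, 3 of 33 genes where 5.71% of all genes did, and 0 of 33 had every one above, where 5.61% did.

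With enzalutamide against vehicle, 0 of 33 passed edgeR, where 1.44% of all genes did (1.09% lower), and DESeq2 and limma-voom also called 0. An unadjusted p under 0.05 was found for 3 genes, PRPS2 (-0.19, interval -0.31 to -0.07, adjusted p = 0.156), RRM2 (-0.14, -0.24 to -0.04, 0.253) and PAICS (-0.11, -0.20 to -0.01, 0.413). All 33 intervals lay between -0.31 and 0.25. In an edgeR fit with the replicate number as a block, PRPS2 (adjusted p = 0.00863) and RRM2 (0.0314) passed as lower. PRPS2 had 96.2, 96.6 and 99.8 CPM with enzalutamide, against 103, 109 and 121 CPM with vehicle, without overlap. Libraries did not overlap for 5 genes that were lower with enzalutamide, where 8.19% of all genes were, and for 2 that were higher, PFAS and CAD, where 8.87% were.

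The degrader was also set directly against each other compound. Against the ligand 21 of 33 were lower and 0 higher, where 14.2% of all genes were lower, and against enzalutamide 22 were lower and 0 higher, where 16.1% of all genes were lower and 32.3% changed in either direction (24 and 26 of 33, in that order, had an unadjusted p under 0.05). TYMS was at -0.57 (SE 0.05, adjusted p = 3.16e-07) against the ligand and at -0.63 (SE 0.05, 6.74e-08) against enzalutamide. PFAS was at -0.40 (3.36e-05) and -0.49 (3.13e-06), TK1 at -0.44 (9.94e-05) and -0.53 (1.27e-05), and PRPS2 at -0.51 (5.98e-06) and -0.35 (0.000186). RRM2B was at 0.21 (0.0588) against the ligand and 0.20 (0.0591) against enzalutamide. All these comparisons share the degrader libraries with that against vehicle.

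Several of the smaller calls in these comparisons lay near the threshold. Against the ligand, PPAT (-0.17), GART (-0.15), DUT (-0.22) and DGUOK (-0.17) no longer passed when any of several libraries of either group was left out, at folds between -0.13 and -0.20. PPAT then had an adjusted p between 0.0504 and 0.142 and GART one between 0.0557 and 0.072, in each case on omission of ligand replicate 1, ligand replicate 3, degrader replicate 1 or degrader replicate 2. DUT was at 0.0867 without ligand replicate 1 and 0.0797 without degrader replicate 3. DGUOK was between 0.0596 and 0.0941 on omission of ligand replicate 1, ligand replicate 3, degrader replicate 2 or degrader replicate 3. RRM2B passed without ligand replicate 3 (0.31, 0.00318) or degrader replicate 1 (0.27, 0.0255), and ADSL (-0.19, 0.00766) and IMPDH1 (-0.21, 0.00921) passed as lower without ligand replicate 3.

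Against enzalutamide, PPAT, GART, ADSL and IMPDH1 were lost in this way. PPAT was at 0.12 without enzalutamide replicate 2, at 0.0984 without degrader replicate 1 and at 0.0757 without degrader replicate 2, and GART at 0.0566 without enzalutamide replicate 2. ADSL was at 0.056 without enzalutamide replicate 1, 0.0724 without degrader replicate 2 and 0.0515 without degrader replicate 3. IMPDH1 was between 0.0619 and 0.164 on omission of enzalutamide replicate 1, enzalutamide replicate 3, degrader replicate 2 or degrader replicate 3. Without degrader replicate 1, RRM2B (0.26, 0.024), IMPDH2 (-0.17, 0.0329) and DGUOK (-0.18, 0.031) passed, and IMPDH2 also without enzalutamide replicate 3 (-0.16, 0.0438).

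Genes that replicate DNA and divide the cell fell along with the nucleotide genes in degrader-treated cells. Of 33 replication genes, 30 fell (90.9%) and 0 rose (median -0.33), where 16.4% of all genes were lower. Those with the smallest p were MCM4 (-0.40, adjusted p = 1.22e-06), ORC6 (-0.48, 2.77e-06), LIG1 (-0.47, 3.34e-06) and CDC45 (-0.44, 3.4e-06), factors of origin licensing, helicase activation and ligation, and the largest fall was that of CCNE1, the cyclin of S phase entry (-0.57, 2.39e-05). Their sum was 3499 to 3599 CPM with the degrader, 4184 to 4495 with the ligand, 4359 to 4451 with enzalutamide and 4313 to 4394 with vehicle. All 20 mitotic genes fell (median -0.70), and their sum was 2129 to 2334 CPM with the degrader, 3230 to 3443 with the ligand, 3375 to 3681 with enzalutamide and 3529 to 3742 with vehicle. The part of such changes in the fall of TYMS, TK1 and the reductase subunits was not tested.

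Of 12 folate genes, whose enzymes and carriers supply the one-carbon units for purine rings and thymidylate, 4 rose (33.3%) and 5 fell (41.7%) in degrader-treated cells. Over all genes tested 16.4% were higher and 16.4% lower. Among those that fell were the cytosolic enzymes MTHFD1 (-0.36, SE 0.05, adjusted p = 2.83e-05) and SHMT1 (-0.33, 2.73e-05), the folate carrier SLC19A1 (-0.38, 0.000389) and the mitochondrial folate transporter SLC25A32 (-0.22, 0.0409). The mitochondrial enzymes SHMT2 (0.47, 4e-05), MTHFD2 (0.40, SE 0.04, 1.18e-06) and MTHFD1L (0.31, 0.00029) rose.

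MTHFD2, which oxidises one-carbon folates in mitochondria, had 320, 322 and 327 CPM with the degrader, against 240, 249 and 247 CPM with vehicle. The groups did not overlap, and the ligand and enzalutamide libraries ran from 232 to 244 CPM.

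Of 9 ribose phosphate genes 3 fell (33.3%) and 1 rose (11.1%), where 16.4% of all genes were lower and 16.4% higher. RPIA (-0.26, adjusted p = 0.000744), PGM2 (-0.23, 0.00277) and TALDO1 (-0.20, 0.00386) fell and PGD rose by 0.15 (0.0215). Of 10 genes of the adenine branch and of PRPS partners, 2 fell (20%, where 16.4% of all genes were lower). Among them was AK4, a mitochondrial adenylate kinase gene, with 154, 147 and 156 CPM with the degrader, against 196, 187 and 199 CPM with vehicle (-0.35, 0.000177). AK4 also fell with enzalutamide, at 157, 152 and 154 CPM (-0.33, 0.00336), and the degrader against enzalutamide gave -0.02 (interval -0.14 to 0.10, 0.85). Among 17 genes of breakdown and pool cleaning 7 fell (41.2%) and 0 rose. Those that fell included SAMHD1, which degrades dNTPs (-0.37, 4e-05), NUDT1, which clears oxidised purines (-0.48, 7.78e-05), GMPR (-0.43, 0.000597) and DCTPP1 (-0.22, 0.00296).

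Of 13 further salvage genes and kinases, 1 rose (7.69%) and 2 fell (15.4%) with the degrader, no more often than genes in general (16.4% higher, 16.4% lower). UPP1, the uridine phosphorylase gene, rose by 0.65 (adjusted p = 2.08e-05) to 8.5, 8.27 and 8.08 CPM with the degrader, against 5.71, 4.89 and 5.24 CPM with vehicle. UPP1 also rose with enzalutamide, to 7.19, 7.07 and 6.49 CPM (0.39, 0.0285), and its ligand libraries, at 6.81, 6.84 and 6.17 CPM, were all above the vehicle libraries without passing (0.32, 0.215). Against enzalutamide the degrader was higher by 0.26 (0.0237). In the same list PNP (-0.22, 0.00134) and UCK2 (-0.19, 0.00156) fell. The nucleoside transporter gene SLC29A2 rose by 0.33 (0.000124), while SLC29A1 fell by 0.18 (0.0063), and SLC29A3 did not pass (0.11, 0.541).

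Of 16 regulators known for these enzymes, 1 rose (6.25%) and 7 fell (43.8%) with the degrader, where 16.4% of all genes were higher and 16.4% lower. ATF4, a stress-response activator of mitochondrial folate genes, rose by 0.79 (SE 0.05, adjusted p = 9.78e-09) to 664, 603 and 605 CPM, against 376, 355 and 348 CPM with vehicle. MYC, an activator of purine and pyrimidine genes, had 226, 219 and 214 CPM with the degrader, against 269, 250 and 255 CPM with vehicle (-0.23, 0.00117). E2F8 (-0.64, 4.78e-06) and E2F2 (-0.31, 4.81e-05) fell, whereas E2F1 was at -0.07 (interval -0.16 to 0.03, 0.286). Transcript levels of regulators are not their activity, which was not measured.

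**Figure D5:**
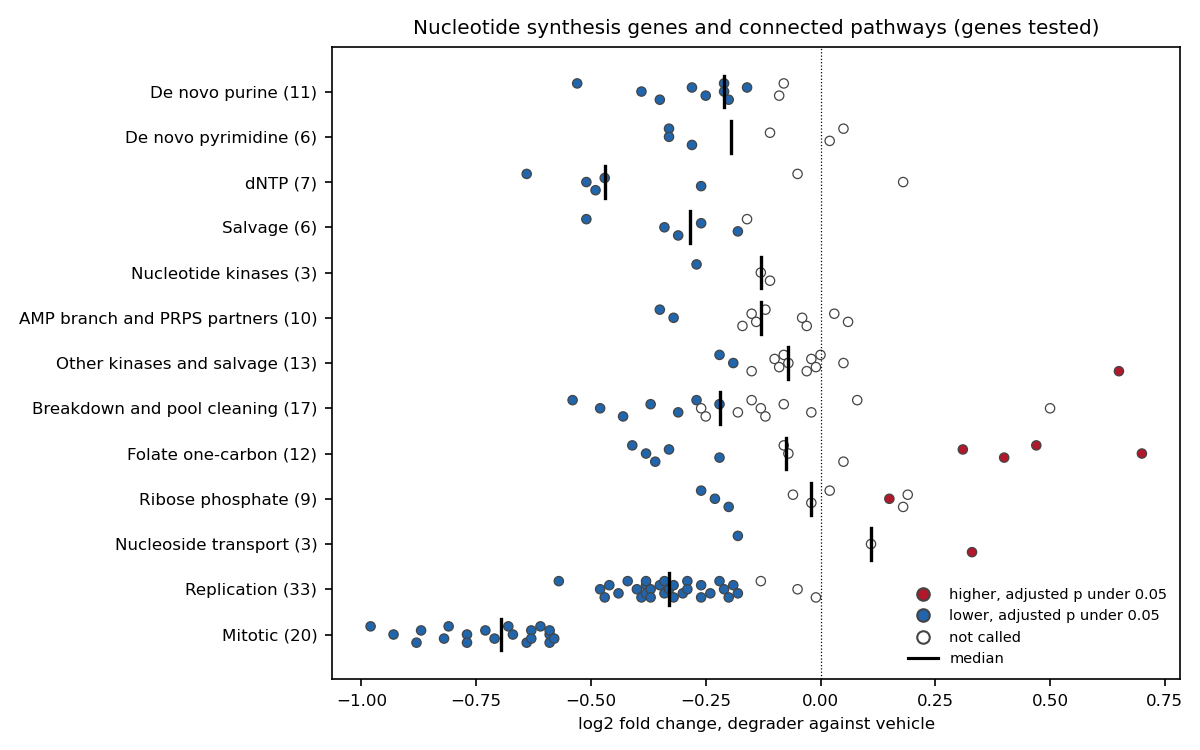
Log2 fold change for degrader against vehicle of each gene tested, by role or connected list (number of genes in brackets), with the median as a black bar; blue points were lower and red points higher at an adjusted p under 0.05. Mitotic genes lie furthest left (median -0.70) and the dNTP genes next (-0.47), while the folate list has 4 red and 5 blue points.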

How the data were processed

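Messenger RNA of 12 samples (4 groups of 3) was measured with a stranded poly(A) kit, per the labels' protocols. Per the submitters' processing notes, HISAT2, StringTie and GRCh37 were used; versions, and whether counting used strand, are not given in the sources used here. Per the file headers, the authors deposited 1 table of read counts, FPKM and TPM per gene and library, log2 normalized values and their group means, and for each compound against vehicle a signed fold-change score, a log2 standard error and p-values. Counts were the base of all tests, FPKM served for levels between genes, and the deposited p-values were used solely for the comparison with the authors' calls.

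Of 18668 genes listed, 17702 passed edgeR's filterByExpr (minimum count 10, minimum total count 15). Counts were scaled by TMM and fitted over all 12 libraries with group as the term (8 residual degrees of freedom), with robust quasi-likelihood tests of 5 contrasts. Every listed gene has at least 1 read in each library. Library totals of 55.5 to 77.2 M make counting error small. Replicates of a group differed by a chi-square per degree of freedom of 5.56 to 22.8, so replicate spread sets the precision. The p-values set a group difference against a spread that is estimated over all 12 libraries and moderated across genes. The tools were edgeR 4.0.16, DESeq2 1.42.0 and limma 3.58.1 in R 4.3.3.

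The members, lists and tests were chosen with earlier results of these data known. All 33 members are named; library values are given for the 12 with the smallest p for degrader against vehicle and for paralogs of called members, with others, and the PPAT and PAICS promoter, added after their values were seen. From each connected list up to 4 called genes with the smallest p are named, with MYC, E2F1, ATF4 and MTHFD2 always included; a few genes of these lists are not reported here; SLC25A32, MTHFD1L, SLC19A1, MTHFD1, SLC29A3, CCNE1 and the overlapping genes were added after their values were seen. Promoter windows came from RefSeq on GRCh38.p14, matched by symbol, while the counts rest on GRCh37. Alternatives were median-of-ratios factors, unscaled totals, no filter, DESeq2, limma-voom, fits of 2 groups, the replicate number as a block, and leaving out each library.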

Additional observations from a re-analysis of the deposited data

How the results depend on the processing

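The count of lower members for degrader against vehicle was 23 under median-of-ratios factors, unscaled library totals, no low-count filter, DESeq2, limma-voom and a fit of the 2 groups, 25 with the replicate block, and 21 to 23 with a library left out. The block added DCK (-0.16, adjusted p = 0.0237) and NME2 (-0.13, 0.0152), which did not pass without it. Against the ligand the count of lower members ran from 17 to 21, and against enzalutamide from 19 to 23, with a library left out. With the replicate block it was 25 against the ligand and 27 against enzalutamide. The count of higher members, 0 in all 5 comparisons, became 1 (RRM2B) for the degrader against vehicle, ligand and enzalutamide with the replicate block, and against enzalutamide in a fit of the 2 groups; with a library left out it was 0 to 1 in each of these comparisons. No member changed sign where it was called. With library totals left unscaled, PPAT (0.073) and GART (0.0521) lost their calls against the ligand, as did PPAT (0.0654) and DGUOK (0.0622) in a fit of the 2 groups. IMPDH1 passed as lower against the ligand with median-of-ratios factors (adjusted p = 0.0431), no filter (0.0496), DESeq2 (0.0358) and the block (0.0169). Against enzalutamide, IMPDH2 and DGUOK passed as lower with median-of-ratios factors (0.0451 and 0.0421) and DESeq2 (0.0418 and 0.0319). A fit of the 2 groups (0.04 and 0.0455) and the block (0.00309 and 0.0256) also called both. The block added further calls in both comparisons.

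Genes called over the whole table for ligand against vehicle numbered 42, and 191 with the replicate block, 25 in a fit of the 2 groups, 124 by DESeq2 and 21 to 77 with a library left out. For enzalutamide against vehicle they numbered 255, and 553 with the replicate block and 398 by DESeq2. The replicate block also called 2 members lower with enzalutamide, PRPS2 (-0.19, adjusted p = 0.00863) and RRM2 (-0.14, 0.0314). The cause of these shifts was not tested. Whether replicate numbers mark a shared batch is not given in the labels and was not settled here. Deviations from the group means correlated at -0.03 to 0.21 (median 0.08) over the 18 same-numbered pairs. The 36 other pairs had a median of -0.05, and 9 of 12 libraries correlated best with their own number. With the block, genes called for degrader against vehicle went from 5795 to 7265. Protein levels and nucleotide pools were not measured.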
